A study of Mus musculus with 3 samples.

Results

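Capicua, its ataxin-1 family partners and the ETV transcription factors are described here by their RNA levels in control mouse thymus. The 9 genes are Cic, Atxn1, Atxn1l and Etv1 to Etv6. They were chosen by symbol, with Ensembl identifiers matched to GENCODE release M21, out of 52636 gene identifiers counted. The study compared T cell lymphomas that lack Cic with thymus of littermate controls, and the 3 control thymi are the samples analysed. These mice were C57BL/6, carried Cic flox/flox alleles and had been given tamoxifen. A floxed allele holds exons between recombinase target sites, and the labels name no Cre driver, age or animal for a library. The libraries are called thymus 1, 2 and 3 after the labels' replicate numbers. As nothing ties each to a separate animal, the p-values below cover the differences among these libraries alone, and part of those may be technical.

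Capicua is an HMG-box protein that binds short DNA octamers and represses nearby genes. Ataxin-1 and its paralogue ataxin-1-like bind capicua and are known from mouse and human cells to stabilise it. ERK signalling, switched on by receptor tyrosine kinases and RAS, phosphorylates capicua and lifts the repression. The PEA3 factor genes Etv1, Etv4 and Etv5 are its best known targets. In the thymus, antigen receptor signals act through the same ERK cascade as T cells mature.

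The libraries held 38265510 to 44932368 reads, of which 25408442 to 30414788 were assigned to genes in the column for reverse-stranded libraries. Levels are given as CPM, a gene's reads relative to the TMM-scaled size of its library, within a gene, and as CPM per kilobase of merged exon between genes. Genes listed as markers of double-positive thymocytes, which other T cell stages express too, had a median of 1444 CPM. They were Cd4, Cd8a, Rag1, Lck, Cd3e and Ptcra, all 6 detected. Their means ran from 36.9 CPM for Ptcra to 4075 CPM for Rag1. Markers of thymic epithelium had a median of 140 CPM, macrophages and dendritic cells 21.96, B cells 17.9, mesenchyme 7.55 and endothelium 3.01, with no marker at 0 in every library. Red cell genes were uneven, with summed levels of 831, 37.3 and 179 CPM in thymus 1, 2 and 3. In bulk tissue, fewer cells of a type and less RNA per cell cannot be told apart.

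The gene count of Cic adds up reads from both of its start sites, which give a long and a short protein, so the forms could not be separated. The windows around both starts are shown for that reason. The windows of Etv5 and the upstream window of Etv1 are shown because these genes are capicua targets. Each runs 5′ to 3′ on the gene's strand, from 250 bases before to 50 after a RefSeq start (GRCm38.p6). Capitals mark TGAATG, the core of the capicua octamers searched here, on either strand.
Cic upstream start, chr7:25267449-25267748, plus strand: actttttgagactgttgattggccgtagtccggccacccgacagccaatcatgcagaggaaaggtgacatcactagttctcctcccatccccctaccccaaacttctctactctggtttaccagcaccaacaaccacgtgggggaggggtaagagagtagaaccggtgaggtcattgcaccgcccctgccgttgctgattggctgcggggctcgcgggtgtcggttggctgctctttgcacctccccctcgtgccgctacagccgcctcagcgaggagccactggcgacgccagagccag
Cic internal start, chr7:25281929-25282228, plus strand: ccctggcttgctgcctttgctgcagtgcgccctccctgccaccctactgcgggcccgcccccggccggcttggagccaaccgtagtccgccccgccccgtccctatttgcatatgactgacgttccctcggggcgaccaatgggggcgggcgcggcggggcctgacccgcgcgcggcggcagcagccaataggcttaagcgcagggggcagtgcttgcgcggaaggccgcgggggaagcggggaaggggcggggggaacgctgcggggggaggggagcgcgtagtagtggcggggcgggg
Etv5 upstream start, chr16:22439521-22439820, minus strand: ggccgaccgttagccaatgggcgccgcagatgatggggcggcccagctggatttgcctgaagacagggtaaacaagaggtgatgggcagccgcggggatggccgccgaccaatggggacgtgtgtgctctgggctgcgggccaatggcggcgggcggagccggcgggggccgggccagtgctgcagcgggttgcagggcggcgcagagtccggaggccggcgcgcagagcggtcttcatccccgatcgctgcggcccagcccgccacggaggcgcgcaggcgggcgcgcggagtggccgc
Etv5 internal start, chr16:22438319-22438618, minus strand: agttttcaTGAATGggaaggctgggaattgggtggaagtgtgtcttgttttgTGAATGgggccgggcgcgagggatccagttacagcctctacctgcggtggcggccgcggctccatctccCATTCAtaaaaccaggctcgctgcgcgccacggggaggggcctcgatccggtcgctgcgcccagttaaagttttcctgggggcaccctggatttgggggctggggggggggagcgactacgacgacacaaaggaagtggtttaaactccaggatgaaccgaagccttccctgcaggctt
Etv1 upstream start, chr12:38779832-38780131, plus strand: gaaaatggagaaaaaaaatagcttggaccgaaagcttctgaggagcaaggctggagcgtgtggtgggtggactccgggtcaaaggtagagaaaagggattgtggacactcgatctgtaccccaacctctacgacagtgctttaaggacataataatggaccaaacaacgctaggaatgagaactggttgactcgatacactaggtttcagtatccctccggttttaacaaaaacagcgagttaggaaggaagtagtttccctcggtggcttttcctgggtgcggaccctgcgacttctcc

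RefSeq windows were matched for 7 of the 9 genes, 10 windows in all. Atxn1 and the PEA3 gene Etv4 had no window, so they were not searched. The capicua octamers TGAATGAA and TGAATGGA, which both contain the core, were found on neither strand of any of the 10. They lay in 1.30% and 1.21% of all 32851 promoter windows. Capicua octamers with TCAATG in place of TGAATG were not searched. The core TGAATG lay in 3 of the 10 windows, those of Atxn1l, Etv2 and the internal start of Etv5, and in 12.7% of all windows. The internal Etv5 window held it 3 times, each time as TGAATGGG, with the leftmost base at positions -242, -198 and -129 from the start. Of all windows, 56 (0.170%) held 3 or more. The ETS octamer CCGGAAGT lay in none of the 10 windows and in 3.89% of all. These are letter matches within 300 bases and were not tested as binding sites.

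Cic was the most abundant of the 9 genes per length. It lies on chromosome 7 (25267704 to 25294159, plus strand, GRCm38), with 25 merged exons of 10294 bases. It had 7893, 7956 and 6455 counts in thymus 1, 2 and 3, which is 25.2, 26.4 and 25.4 CPM per kilobase. The values lay close together and averaged 25.7 ± 0.606 CPM per kilobase (SD, n = 3). Of the 14030 protein-coding genes tested, 85.0% were lower per kilobase. Because the count covers all exons, it does not show whether the floxed exons were present in every cell.

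Atxn1l, which encodes the ataxin-1 paralogue, was the more abundant partner. It lies on chromosome 8 (109726451 to 109737739, minus strand). It had 2292, 2193 and 1853 counts, or 10.01, 9.935 and 9.989 CPM per kilobase. The 3 libraries gave nearly the same level. Its coefficient of variation was 0.388%, below the 2.18% that counting error alone would give at this depth. That closeness depended on the scaling, as the coefficient was 2.56% with library totals and 2.43% with a correction for GC content, both above the counting error.

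Atxn1, whose expanded polyglutamine form causes spinocerebellar ataxia in humans, lies on chromosome 13 (45549755 to 45965008, minus strand). It had 970, 833 and 830 counts, or 2.29, 2.04 and 2.42 CPM per kilobase. Thymus 2 was lowest and thymus 3 highest. All values lay below all those of Atxn1l.

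Atxn1l exceeded Atxn1 per kilobase by 4.37, 4.87 and 4.13 times in thymus 1, 2 and 3, a mean ratio of 4.45 ± 0.377 (SD, n = 3). An exact two-sided sign-flip test over libraries gave p = 0.25, the smallest that 3 libraries allow. The ratio kept its direction in all 3 libraries but depended on the length used. It was 3.38 per longest transcript and 2.32 per mean transcript length, since Atxn1 has 13914 bases of merged exon and its annotated transcripts average 3788. Cic stood at 2.57 ± 0.0709 times Atxn1l and 11.5 ± 1.27 times Atxn1 per kilobase. It was 2.10 ± 0.0871 times their sum (SD, n = 3 each). These ratios also depended on the length. Per mean transcript length Cic stood at 119 CPM per kilobase, 6.23 ± 0.172 times Atxn1l, 14.5 ± 1.60 times Atxn1 and 4.35 ± 0.222 times their sum (SD, n = 3 each). Per longest transcript Cic stood at 32.1 CPM per kilobase and at 3.22 ± 0.0887 times Atxn1l (SD, n = 3).

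**Figure D1:**
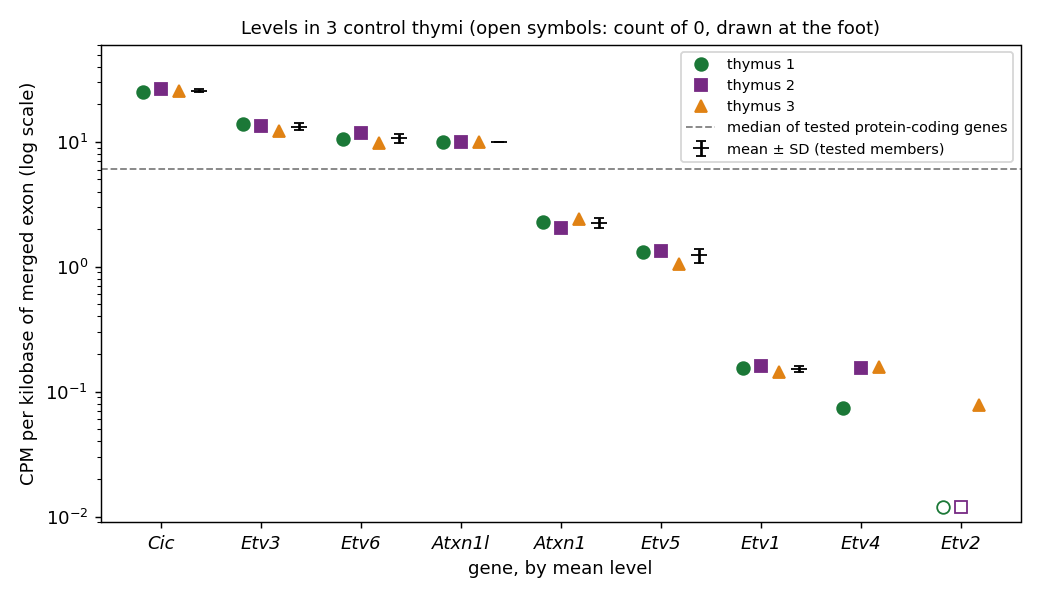
CPM per kilobase of merged exon, on a log scale, for each gene in thymus 1 (circles), 2 (squares) and 3 (triangles), with the mean and SD of the 7 genes that passed the count filter. Cic, Etv3, Etv6 and Atxn1l lie above the median of tested protein-coding genes (6.02, dashed line), and the other 5 genes lie below it.

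Among the ETV genes, the repressor genes Etv3 and Etv6 made up 94.0% ± 0.0745 of the summed ETV level per kilobase, and the PEA3 activator genes Etv1, Etv4 and Etv5 made up 5.94% ± 0.207 (SD, n = 3 each). Etv3 encodes a repressor of the ERF subfamily and lies on chromosome 3 (87525407 to 87540156, plus strand). It had 4328, 4066 and 3118 counts, or 13.8, 13.5 and 12.3 CPM per kilobase, highest in thymus 1 and lowest in thymus 3. Etv6, also called TEL, is a repressor needed in mice for blood stem cells of the marrow, and in humans it is fused to other genes in leukaemias. It lies on chromosome 6 (134035700 to 134270158, plus strand). It had 1920, 2046 and 1450 counts, or 10.5, 11.7 and 9.83 CPM per kilobase, with thymus 2 highest. Every Etv3 value lay above every Etv6 value, and within libraries Etv3 was 1.24 ± 0.0783 times Etv6 (SD, n = 3). With library totals as the scaling, the ranges of Etv3 and Etv6 overlapped. The ratio was 1.67 ± 0.106 per longest transcript and 1.18 ± 0.0747 per mean transcript length (SD, n = 3 each).

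Of the PEA3 genes Etv5 stood highest. It lies on chromosome 16 (22381309 to 22439719, minus strand) and had 165, 160 and 106 counts, or 1.32, 1.33 and 1.05 CPM per kilobase. Thymus 3 was below the other libraries. The processed pseudogene Gm4798 holds 24.5% of the 50-base stretches of Etv5 transcripts, and reads with equal matches in gene and pseudogene were dropped. Etv5 may therefore be counted low, and Gm4798 itself had 1, 0 and 1 counts.

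Etv1 lies on chromosome 12 (38779380 to 38870484, plus strand) and had 63, 62 and 47 counts, or 0.156, 0.159 and 0.143 CPM per kilobase. The level was similar in the 3 libraries. Within libraries Etv5 was 8.05 ± 0.648 times Etv1 per kilobase of merged exon (SD, n = 3). That ratio depended on the length, at 4.11 ± 0.331 per longest transcript and 3.33 ± 0.268 per mean transcript length (SD, n = 3 each). With the longest transcript as the length Etv5 stood at 1.27 and Etv1 at 0.309 CPM per kilobase, as Etv1 has 13296 bases of merged exon but a longest transcript of 6576. The pseudogene Gm5454 shares 8.42% of the stretches of Etv1 and had 0 counts in each library.

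Etv4 lies on chromosome 11 (101769742 to 101785371, minus strand) and had 7, 14 and 12 counts. These correspond to 0.0741, 0.154 and 0.157 CPM per kilobase. Thymus 1 was lowest, but the exact 95% Poisson intervals in CPM, which cover counting error only, overlapped between thymus 1 (0.0925 to 0.474), thymus 2 (0.261 to 0.801) and thymus 3 (0.252 to 0.850). Etv2, which starts the blood and vessel lineages in the mouse embryo, lies on chromosome 7 (30633616 to 30635852, minus strand). It had 0, 0 and 2 counts, all at or under the limit of 3 counts that a count of 0 allows, which is 0.0986, 0.102 and 0.122 CPM in thymus 1, 2 and 3. Etv2 was therefore not detected above that limit at this depth.

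The order per kilobase was Cic, Etv3, Etv6, Atxn1l, Atxn1, Etv5, Etv1, Etv4 and Etv2. Of its 8 neighbouring pairs, 5 had library values that did not overlap. The values of Etv6 and Atxn1l, of Etv1 and Etv4, and of Etv4 and Etv2 overlapped. Without thymus 1, Etv4 (0.155 CPM per kilobase) stood above Etv1 (0.151). Without thymus 3 the number of pairs without overlap was 8, and with the longest or the mean transcript as length it was 8 as well.

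Set among the 26 ETS family genes listed, Etv3 ranked 10 and Etv6 ranked 12 per kilobase. Etv5 ranked 18, Etv1 21, Etv4 22 and Etv2 25. The 6 ETV genes gave 5.79% ± 0.164 of the summed ETS level (SD, n = 3). The list was led by Ets1 at 115 ± 9.27, Ets2 at 73.7 ± 4.61 and Elf1 at 47.7 ± 1.55 CPM per kilobase, with Ets1 a main ETS factor gene of T cells. Spdef, Fev and Elf5 shared the foot of the list with Etv4 and Etv2, all below 1 CPM in every library. Erf, of the same subfamily as Etv3 and named here after its value was seen, lies 16.9 kilobases from Cic on chromosome 7. It had 10.85, 10.84 and 11.3 CPM per kilobase in thymus 1, 2 and 3, a mean of 10.98 ± 0.238 (SD, n = 3). Its mean lay between those of Etv3 and Etv6, but in thymus 2 it was below Etv6, and the ranges of Erf and Etv6 overlapped.

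**Figure D2:**
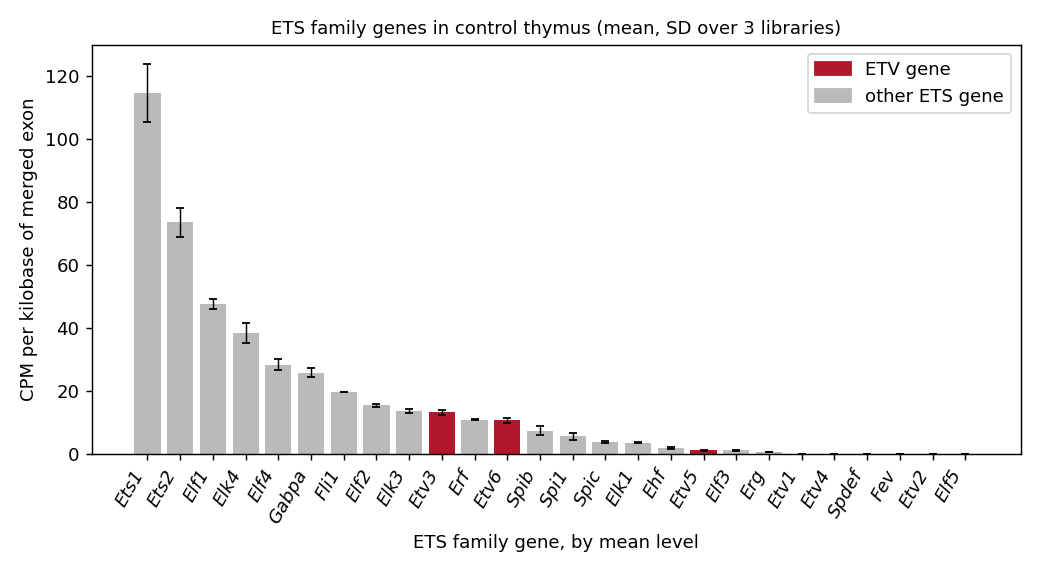
Mean CPM per kilobase of merged exon with SD over 3 libraries for 26 ETS family genes, ETV genes in red and the others in grey. Etv3 (13.2) and Etv6 (10.7) stand in the middle of the order, while Etv5 (1.23), Etv1 (0.153), Etv4 (0.128) and Etv2 (0.0258) stand near 0.

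The design has 1 condition, so the test available was how much each gene varied between the thymi. Of the 9 genes, 7 passed the filter on low counts, and Etv2 and Etv4 did not. None of the 7 was more variable than the trend for its abundance (edgeR quasi-likelihood test, one-sided, Benjamini-Hochberg threshold 0.05). The count was 0 of 7, against 0.0604% of all 16548 genes tested. At an unadjusted p under 0.05 it was also 0 of 7, against 4.42% of all genes. Negative binomial goodness of fit and DESeq2 dispersion outliers each gave 0 of 7 (0.737% and 0.489% of all genes). With 3 libraries such tests can miss changes of modest size in a single library, so a count of 0 does not show that the levels were equal.

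Etv6 had the largest quasi-dispersion, 1.70 times the trend (edgeR adjusted p = 0.984), and Atxn1 followed at 1.36 times (edgeR adjusted p = 0.986). Etv5 and Etv3 lay near the trend at 0.983 and 0.951 times. Cic, at 0.124 times, Etv1 at 0.0952 and Atxn1l at 0.00363 lay well under it. Coefficients of variation were 8.62% for Etv6, 8.56% for Atxn1, 6.07% for Etv3, 2.36% for Cic, 13.0% for Etv5 and 5.38% for Etv1, with a median of 9.06% over all genes tested.

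Variation beyond counting noise was called for Cic, Atxn1, Etv3 and Etv6 (edgeR goodness of fit at a dispersion of 0, Benjamini-Hochberg 0.05). That is 4 of 7, against 43.4% of all genes tested. This test reaches smaller spreads at higher counts. The 4 genes had means of 31.3 to 264 CPM, against a median of 18.8 CPM over all genes tested. For Etv1, Etv5 and Atxn1l it was not called, and the counting error of Etv1 (13.2%) and Etv5 (8.34%) was large beside their spread. The calls changed when a library was left out. Without thymus 1 they were Atxn1, Etv3 and Etv6, without thymus 2 only Etv3, and without thymus 3 Cic and Etv6. Calls over all genes fell as well, from 7188 of 16548 with all libraries to 6579 of 16558 without thymus 1. They fell to 4348 of 16597 without thymus 2 and to 3768 of 16874 without thymus 3. The call of Cic was lost with DESeq2 size factors (edgeR adjusted p = 0.102) and that of Atxn1 with library totals (edgeR adjusted p = 0.0883).

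**Figure D3:**
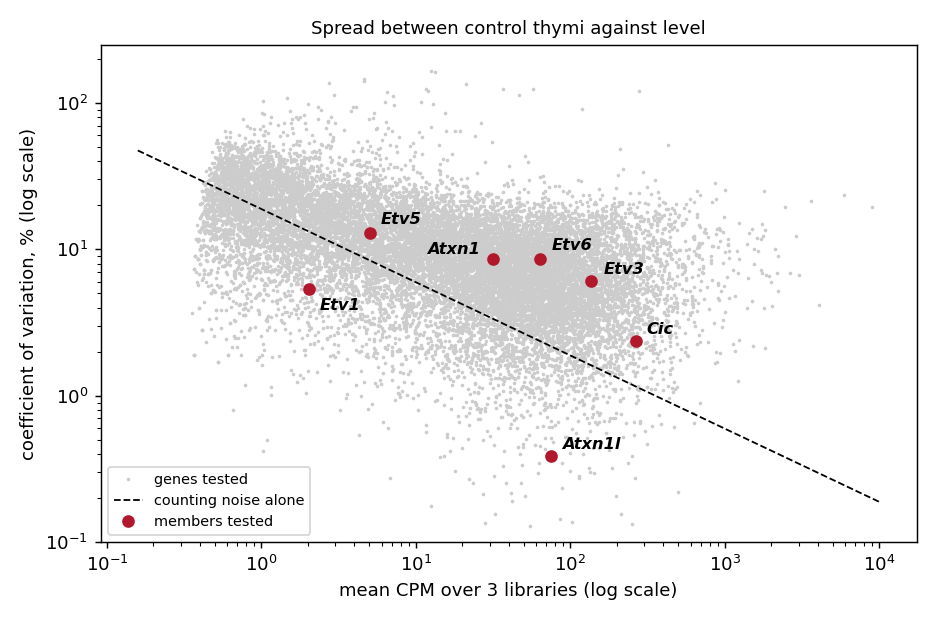
Coefficient of variation over the 3 libraries against mean CPM, both on log scales, for all genes tested (grey) and the 7 tested genes described here (red), with the line that counting noise alone gives. Atxn1l (0.388%) and Etv1 (5.38%) lie under the line, and Etv6, Etv3, Atxn1, Etv5 and Cic lie above it.

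All 4 tested ETV genes were lowest in thymus 3, where 39.7% of all genes tested were lowest. As log2 CPM relative to the gene mean in thymus 1, 2 and 3, Etv5 stood at 0.11, 0.11 and -0.22 and Etv6 at -0.01, 0.13 and -0.12. Etv3 stood at 0.07, 0.03 and -0.10 and Etv1 at 0.02, 0.05 and -0.08. Atxn1 ran differently, at 0.03, -0.14 and 0.11. None of these shifts passed the variability test. All 6 macrophage and dendritic cell markers and all 5 B cell markers were also lowest in thymus 3, with summed levels of 224, 203 and 180 CPM and of 94.4, 86.0 and 71.6 CPM in thymus 1, 2 and 3. Of the endothelial markers, 4 of 5 were lowest there, with summed levels of 114, 127 and 102 CPM. Of the thymic epithelium markers, 4 of 6 were lowest there, with a median log2 deviation of -0.10, while their summed levels were 1372, 1395 and 1428 CPM. Mesenchyme had 3 of 6 markers lowest in thymus 3, and of the genes listed for double-positive thymocytes 2 of 6 were lowest there. The part of these cells in the ETV values was not tested.

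The libraries differed in a trend with transcript GC content. At the GC content of Cic, 60.4%, the trend was -0.03, 0.08 and -0.05 in log2 in thymus 1, 2 and 3, against deviations of Cic of -0.03, 0.04 and -0.01. With the trend removed Cic stood at 0.01, -0.05 and 0.04, so its highest library as counted, thymus 2, became its lowest. Atxn1l, at 0.00, -0.01 and 0.00 as counted, stood at 0.01, -0.04 and 0.03 with the trend removed. For Etv1, Etv3, Etv5 and Etv6 thymus 3 stayed lowest, at -0.11, -0.09, -0.19 and -0.08.

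**Figure D4:**
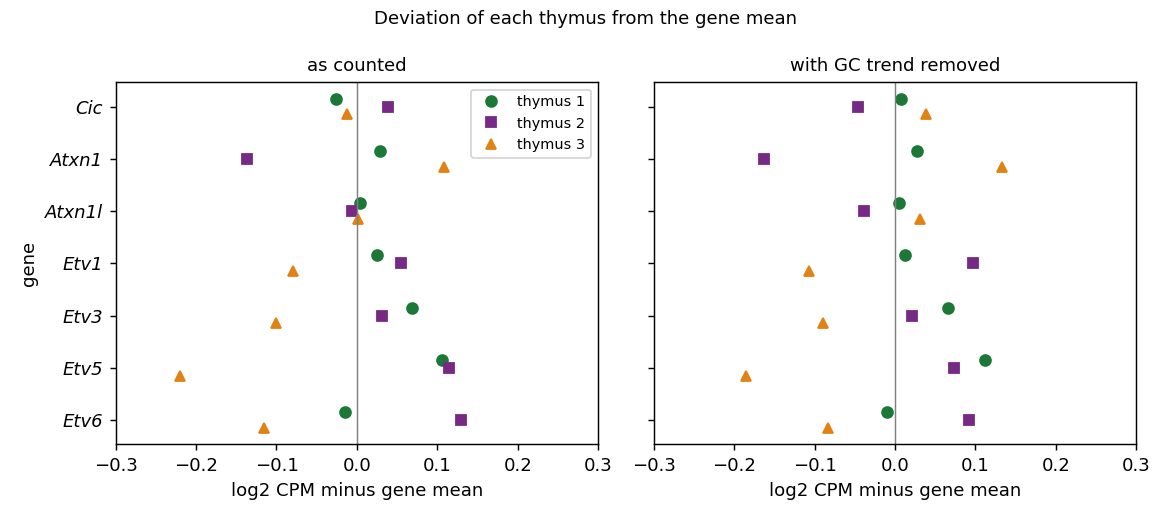
Log2 CPM minus the gene mean for each thymus, as counted (left) and with the GC trend removed (right), for the 7 tested genes. The thymus 3 triangles of Etv1, Etv3, Etv5 and Etv6 lie left of 0 in both panels, and the thymus 2 square of Cic moves across 0.

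The wider pathway was expressed around these genes. In 6 further lists of 71 genes, 66 were tested and 0 were called more variable than the trend by edgeR. At an unadjusted p under 0.05 there were 3, namely Dusp4, Spib and Ywhaq, and negative binomial goodness of fit and DESeq2 called 0. Beyond counting noise 41 of the 66 were called, against the 43.4% of all genes. That test reaches smaller spreads at higher counts, so the shares are not like for like. The list medians ran from 6.07 to 140 CPM, against 18.8 CPM over all genes tested. Their median coefficients of variation ran from 3.34% to 9.79%, against 9.06%.

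The list of capicua co-repressor genes and phosphoserine-binding adaptor genes had the highest list median. The adaptors bind many proteins besides capicua. The list median was 32.5 CPM per kilobase, against 4.99 over all genes tested and 6.02 over the protein-coding genes tested. All 11 genes of the list were tested. They were led by the adaptor genes Ywhae at 171 ± 3.76 and Ywhab at 78.0 ± 2.53 and by the deacetylase gene Hdac2 at 48.6 ± 7.35 CPM per kilobase. The 7 genes of proteins that bind ataxin-1 had a median of 15.6, led by the splicing factor genes U2af2 at 44.2 ± 0.310 and Rbm17 at 43.1 ± 1.93 and by the deacetylase gene Hdac3 at 23.7 ± 0.585 CPM per kilobase. All of the values of Cic and Atxn1l lay below those of U2af2 and Rbm17.

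The 12 genes of the RAS, RAF, MEK, ERK and RSK enzymes upstream of capicua had a median of 20.3 CPM per kilobase, with Nras at 36.5 ± 1.79. The 8 genes listed for the ubiquitin ligase that removes PEA3 proteins had a median of 14.95 CPM per kilobase. The list also holds adaptor genes, such as Trib2, whose proteins are not subunits of the ligase. It was led by Ddb1 at 45.7 ± 2.25, Dda1 at 33.3 ± 0.750 and Trib2 at 23.4 ± 0.831 CPM per kilobase. Cop1, the substrate-binding subunit of the ligase and named after its value was seen, had 2.44 ± 0.168 CPM per kilobase. That is above Etv5 in every library, and Etv5 was the highest PEA3 gene.

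Capicua targets other than ETV genes had a median of 2.79 CPM per kilobase over 13 genes, against 0.693 over the 6 ETV genes. The ERK phosphatase gene Dusp6 led at 14.4 ± 0.842, followed by the cyclin gene Ccnd2 at 14.02 ± 0.642 and the RAS pathway inhibitor gene Spred1 at 8.06 ± 0.287 CPM per kilobase. Fosl1 and Shc3 were below 1 CPM in every library, like Etv4 and Etv2. The 13 targets spanned 14.4 to 0.0354 CPM per kilobase. Of the 6 ETV genes only the PEA3 genes are named here as capicua targets. These stood at 1.23 (Etv5), 0.153 (Etv1) and 0.128 (Etv4) CPM per kilobase.

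**Figure D5:**
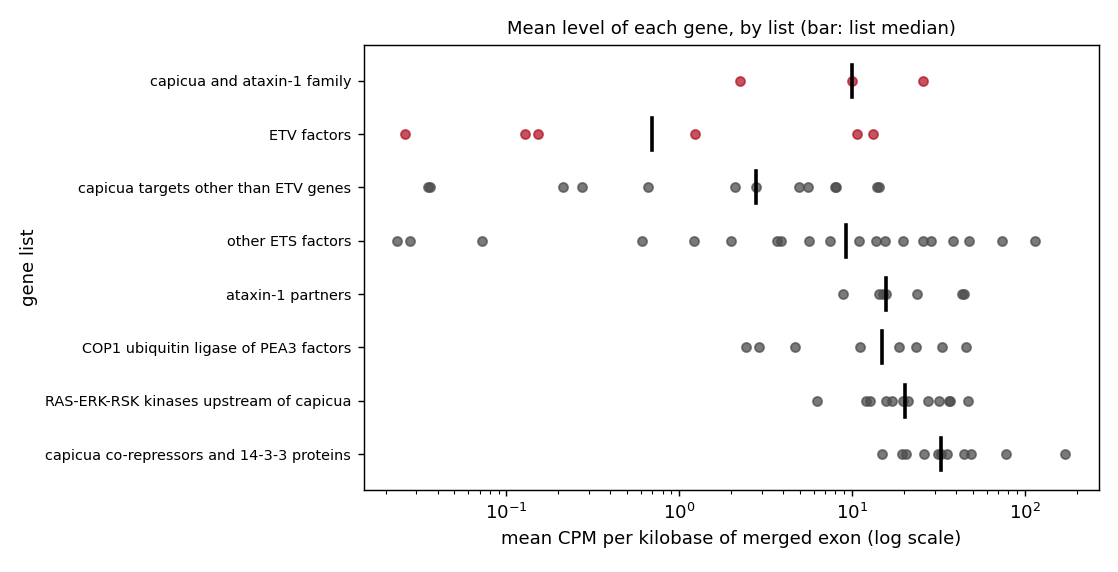
Mean CPM per kilobase of merged exon, on a log scale, of each gene in 8 lists (points) with each list's median (bar). ETV factors have the lowest median (0.693) and span from 0.0258 to 13.2, while the co-repressor and adaptor list has the highest (32.5).

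By level alone, the protein-coding genes nearest to Cic in all 3 libraries were Arrdc1, Arl2bp and Cant1, whose log2 CPM per kilobase differed from that of Cic by at most 0.03, 0.03 and 0.04. Nearest to Atxn1l were Fam172a, Ctps2 and Usp21, and nearest to Etv6 were Kxd1, Wsb2 and Abhd11, whose largest log2 differences were 0.02 to 0.03. With 3 libraries such likeness describes levels only.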

How the data were processed

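RNA of 3 control thymi was sequenced from TruSeq Stranded mRNA libraries, per the labels' protocols. The deposited files hold unnormalised counts of reads on each gene, with a file per library and columns for unstranded, forward-stranded and reverse-stranded libraries. The submitters' processing notes name STAR 2.5.3a, DESeq2 and GRCm38; no source used here gives the annotation release or filters. The layout is that of STAR's gene counting, which keeps only uniquely mapped reads. The reverse-stranded column was used, which held 96.6% of stranded counts. The 4 summary lines entered no library size: reads mapping to several places were 14.0% to 15.5% of reads, without a gene 13.5% to 14.6%, unmapped 2.31% to 2.43% and ambiguous 1.05% to 1.10%.

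Of 52636 identifiers, 52489 matched GENCODE M21. Counts were analysed with edgeR 4.0.16 and DESeq2 1.42.0 in R 4.3.3. The filter (minimum count 10, total 15) left 16548 genes, and TMM factors were computed on these. An intercept-only robust quasi-likelihood fit gave each gene's quasi-dispersion, which was divided by the trended prior, referred to the F distribution with 5.24 prior degrees of freedom and adjusted over all genes. The procedure was tested on simulated data. Log2 deviations used a prior count of 2 and a lowess span of 0.3 for the GC trend. Lengths are merged exons of all transcripts.

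The genes and lists were chosen with earlier results of these data known. Named are the 9 genes, the 3 most abundant per kilobase of each list, genes below 1 CPM in every library, and the 3 nearest in level to Cic, Atxn1l and Etv6. Genes named otherwise were chosen after their values were seen. Certain abundant list members are not reported here. Poisson intervals are exact, at 95%.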

Additional observations from a re-analysis of the deposited data

Results flagged for a closer look

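Reads on the strand opposite to the gene, which no comparison used, exceeded 3 counts in every library for Cic and Atxn1. Cic had 134 such reads in all, with 56, 36 and 42 in thymus 1, 2 and 3, or 0.597% of its stranded reads, where the median gene tested had 0.186%. No annotated gene overlaps Cic. Atxn1 had 51, with 17, 13 and 21, or 1.90%. The gene Gmpr lies on its opposite strand, shares 375 exon bases with it and had 558, 589 and 480 counts. The part of that overlap in the opposite-strand reads of Atxn1 was not tested.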

How the results depend on the processing

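No paired analysis was possible because all 3 libraries belong to 1 group. The edgeR count of variable genes was 0 for the 9 genes and 0 for the pathway lists under every alternative run: unfiltered genes, only genes averaging 5 CPM or more, library totals, DESeq2 size factors, the unstranded column, a non-robust prior, DESeq2 outliers, negative binomial goodness of fit and each library left out. The 4 genes called beyond counting noise became 3 with DESeq2 size factors (Cic lost) or library totals (Atxn1 lost). With a library left out they became 1 to 3 (1 without thymus 2, 2 without thymus 3). Over all genes that test called 7188 in the main run, 7160 with DESeq2 size factors and 7738 with library totals. With a library left out it called 3768 to 6579 over all genes. The 5 neighbouring pairs without overlap became 8 with the longest transcript as length and 8 with the mean transcript length. They became 4 with library totals (Etv3 and Etv6 lost) and 5 to 8 with a library left out (8 without thymus 3). The Atxn1l to Atxn1 ratio of 4.45 became 3.38 with the longest transcript, 2.32 with the mean transcript length and 4.25 to 4.62 with a library left out, where the exact sign-flip test cannot go below 0.5. The changes with a length follow from the divisor. Runs with a library left out rest on fewer samples, and their results also differed with the library dropped. What caused those changes was not tested. Levels per kilobase moved by more than 1 SD for 8 of the 9 genes with the mean transcript length, 4 with the longest transcript, 2 with the unstranded column, 2 without thymus 2 (Cic at 24.98 and Atxn1l at 9.86 CPM per kilobase) and 1 without thymus 3 (Atxn1l at 10.1). Depth limits Etv2 and Etv4, which hold 2 and 33 counts over all libraries.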

Other observations

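Strand bears on the counts of Atxn1 and Etv6. Relative to the reverse-stranded column, counts in the unstranded column differed by -3.80% for Atxn1, -2.58% for Etv6 and 0.596% for Cic. The antisense gene Gm17089, which shares 135 exon bases with Etv6, had 1, 0 and 0 counts on its own strand and 54, 63 and 39 on the strand of Etv6. Etv3l, annotated in mouse as an unprocessed pseudogene, shares 150 stretches of 50 bases with Etv3 (1.44% of its own) and had 3, 1 and 1 counts.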
